A study of Homo sapiens with 10 samples.

Results

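The genes described here are those of the ribosome and of translation initiation. A gene was taken when a probe set on the array listed its symbol alone and the symbol began with RPL, RPS, MRPL, MRPS or EIF followed by a digit, with RPLP genes included and the RPS6K kinases left out. The rule found 59 of the 4713 genes measured, on 441 probe sets, here called rows, with 1 to 37 rows per gene and a median of 6. They were 16 cytosolic ribosomal protein genes (9 of the large and 7 of the small subunit), 20 mitochondrial ribosomal protein genes (15 of the large and 5 of the small subunit) and 10 EIF genes. The symbols EIF2C1, EIF2C3 and EIF2C4 also met the rule, but these genes are now named AGO1, AGO3 and AGO4 and encode argonautes, the small-RNA-binding proteins of RNA interference, so they are given apart. The last 10 symbols are those of ribosomal protein pseudogenes.

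RNA came from SW620, a human cell line established from a colon cancer metastasis, on 10 Affymetrix HG1.0ST arrays. In these arrays 3 hold liver metastasis derivatives, 3 hold lung metastasis derivatives and 4 hold the parental cells. The derivatives arose as metastases in balb/c nude mice, which lack T cells, and were grown in culture before RNA was taken, while the parental cells were cultured in the same medium. All arrays are labelled as biological replicates, but the labels do not say whether the arrays of a derivative came from different metastases or from repeated cultures of the same cells. The p-values therefore measure only the spread among these arrays, which may be technical. Values are log2 signals, 1 mean over all rows per gene and array. The liver and lung comparisons share the 4 parental arrays.

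Cytosolic ribosomes translate the mRNAs of the nucleus and are built from a small subunit, which reads the mRNA, and a large subunit, which joins the amino acids. Mitochondrial ribosomes are made of a separate set of nuclear-encoded proteins and translate the few mRNAs of the mitochondrial genome, which encode respiratory chain subunits. Initiation factors bring the small subunit, the initiator tRNA and the mRNA together: eIF2B recharges eIF2 with GTP, eIF3 binds the small subunit, and the eIF4 proteins bind the mRNA cap and unwind the leader. The mRNAs of cytosolic ribosomal proteins are known for a terminal oligopyrimidine tract, a C at the 5′ end followed by a run of C and T, through which growth signalling by mTOR controls their translation.

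The classes differ in how their transcripts begin, and the following starts show it for genes on which the results turn. Each line gives the 10 bases before and the 20 bases from a transcription start annotated by RefSeq in GRCh38.p14, 5′ to 3′ on the gene's own strand, and capitals mark a tract, searched for on that strand only as a C at the start followed by at least 4 bases that are each C or T.
RPL27A: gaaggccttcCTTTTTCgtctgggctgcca
RPLP2: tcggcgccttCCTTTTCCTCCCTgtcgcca
RPL22: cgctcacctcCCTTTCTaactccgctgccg
RPS13: ctctcgctctCCTTTCgttgcctgatcgcc
RPS26: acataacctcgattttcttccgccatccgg
RPS28: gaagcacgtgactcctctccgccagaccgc
EIF3M: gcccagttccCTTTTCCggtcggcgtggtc
EIF3F: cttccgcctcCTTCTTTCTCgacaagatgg
EIF3I: ttccggtcttactcacgttgcggccttcct
MRPL49: gtgtcacgtcactgctgagcgaccgcgcgg
MRPS35: ccggcttgccgtcctcgcagccatggcggc
These stretches lie at chr11:8682782-8682811 on the plus strand (RPL27A), chr11:809957-809986 plus (RPLP2), chr1:6199576-6199605 minus (RPL22), chr11:17077648-17077677 minus (RPS13), chr12:56041908-56041937 plus (RPS26), chr19:8321486-8321515 plus (RPS28), chr11:32583821-32583850 plus (EIF3M), chr11:7987327-7987356 plus (EIF3F), chr1:32222397-32222426 plus (EIF3I), chr11:65122173-65122202 plus (MRPL49, 1 of its annotated starts) and chr12:27710822-27710851 plus (MRPS35). RefSeq starts were matched for 44 of the 59 genes, with 48 starts in all. A tract was present in 11 of 14 cytosolic genes with a start, in 3 of 9 EIF genes (EIF3F, EIF3M and EIF4B), in 0 of 18 mitochondrial genes and in 0 of 3 argonaute genes. Over the whole start table it was present in 1404 of 27305 genes (5.14%). A match describes the annotated letters, and a start annotated a few bases away would change it: RPS26 and RPS28, both without a tract here, have runs of pyrimidines a little downstream of the annotated base.

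**Figure D1:**
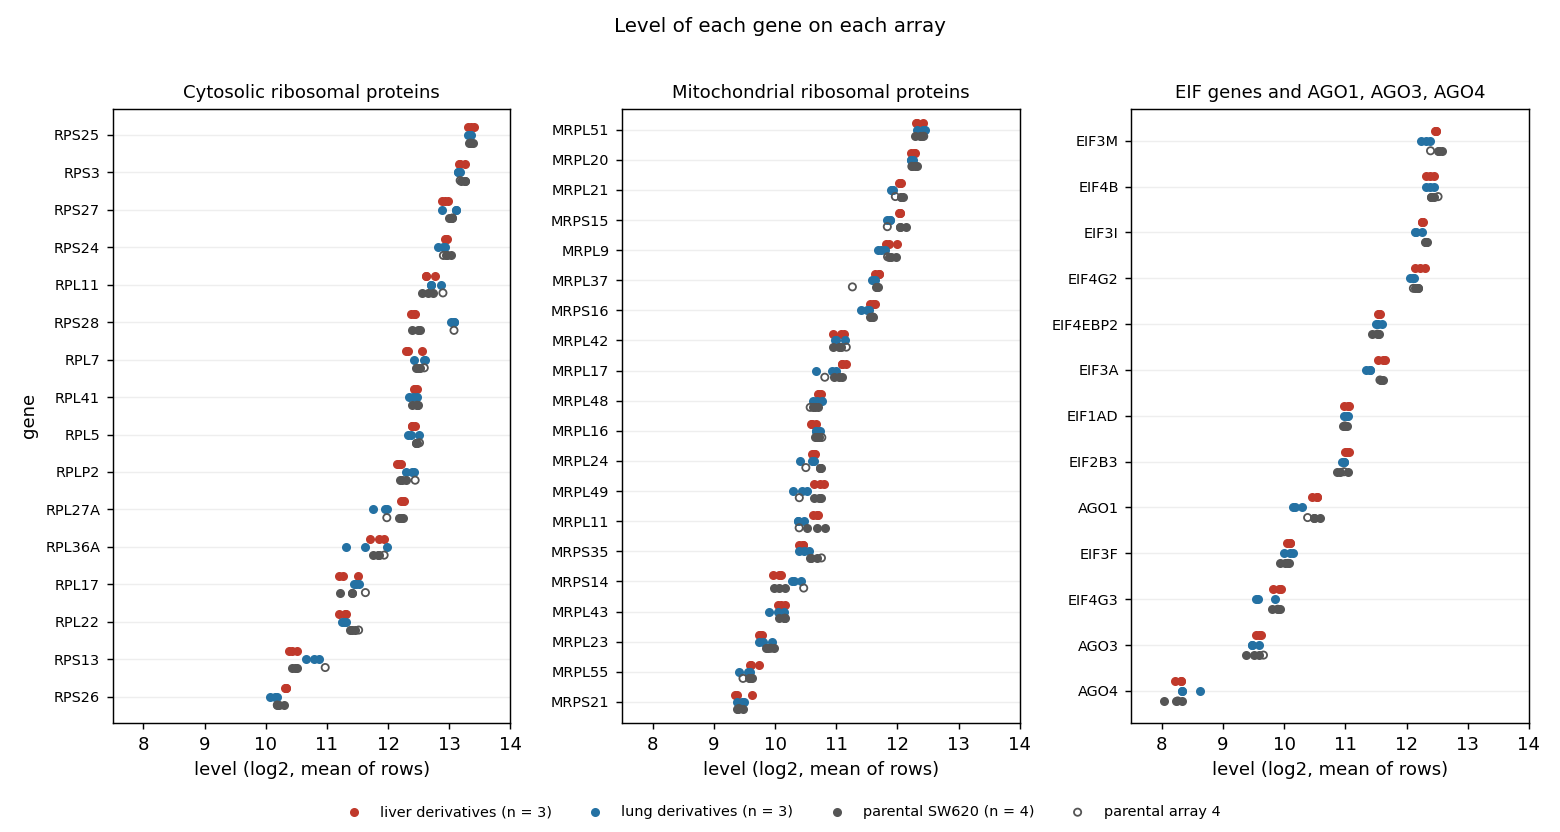
Level of each gene on each array (x axis, log2 signal, mean over the rows of the gene), by class, with liver derivatives in red, lung derivatives in blue and parental cells in grey, and parental array 4 drawn as an open circle. For most genes the 10 arrays lie close together, and for RPS28 the 3 lung arrays and parental array 4 stand apart near 13.1 while the other 6 lie between 12.38 and 12.53.

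Transcripts of these classes gave bright signals on every array. The median gene level was 12.44 for the cytosolic genes, 10.68 for the mitochondrial genes and 11.53 for the EIF genes, against 8.30 for all 4713 genes. Of the 16 cytosolic genes, 14 were among the brightest 10% of genes, as were 9 of the 20 mitochondrial and 8 of the 10 EIF genes. Probe brightness depends on the probe's sequence as well as on the transcript, so these levels describe the arrays and do not rank the genes by transcript number. The cytosolic genes ran to 13.35 (RPS25, a small subunit protein needed for translation from several internal ribosome entry sites), not far under the highest value of any row on any array, 13.99. The pseudogene symbols ran from 4.80 (RPL36AP40) to 13.45 (RPL13AP5, the brightest gene mean in the table). Probes for a pseudogene can bind the mRNA of its near-identical parent gene, so these values cannot be assigned to the pseudogene itself.

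Levels varied little between arrays. Over the 10 arrays the median range of a gene was 0.30 for the cytosolic genes, 0.30 for the mitochondrial genes and 0.21 for the EIF genes, against 0.46 for all genes. EIF1AD, which holds an eIF1A domain, kept within 0.10 and RPS25 within 0.099 over all 10 arrays. MRPL20, of the mitochondrial large subunit, had 12.29, 12.27 and 12.23 in the liver derivatives, 12.25, 12.22 and 12.22 in the lung derivatives, and 12.32, 12.24, 12.28 and 12.24 in parental cells. The 3 groups overlapped for MRPL20, and it had the narrowest intervals of the 49 genes left after the pseudogenes, 0.12 to either side of the change against parental cells, where the median interval was 0.15 and the widest, for RPS28, 0.29.

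Parental array 4 stood apart from the other parental arrays. Across the gene means, which are not independent replicates, parental arrays 1 to 3 correlated at 0.9962 to 0.9975 with each other and at 0.9889 to 0.9908 with parental array 4. The lung arrays correlated at 0.9843 to 0.9874 with parental array 4 and at 0.9788 to 0.9849 with the other parental arrays. For 35 of the 59 genes (59.3%) parental array 4 lay outside the range of the other parental arrays on the side of the lung mean, as for 2654 of all genes (56.3%), and for 33 of the 59 (55.9%) it was nearer the lung mean than the mean of the other parental arrays, as for 50.4% of all genes. Over all genes it correlated more with each other parental array than with any lung array. The labels give no batch. Called lung changes, and the other lung differences described in detail below, are therefore also read without parental array 4 or adjusted for array set, that is, with a model term that joins parental array 4 to the lung arrays and so leaves it as their only parental comparison.

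Marker lists were read beside these results. Of 5 epithelial colon cancer markers, the keratins KRT8 and KRT18 had mean levels of 12.78 and 11.65 over all arrays, LGR5 had 8.99 and ELF3 had 8.18, and GUCY2C lay at percentile 11.2 of all genes. LGR5, an intestinal stem cell receptor, fell by 0.81 in the liver derivatives and by 1.27 in the lung derivatives relative to parental cells (adjusted p = 0.000888 and 5.07e-05), and ELF3, an epithelial transcription factor, fell by 0.51 and 0.25 (adjusted p = 0.00149 and 0.0328). The mean level of the 5 was 9.42 to 9.46 in the liver derivatives, 9.37 to 9.42 in the lung derivatives and 9.62 to 9.71 in parental cells. The mean level of 8 hepatocyte markers was 6.51 to 6.58 in the liver derivatives, 6.46 to 6.71 in the lung derivatives and 6.44 to 6.54 in parental cells. The mean level of 6 lung epithelial markers was 7.34 to 7.47 in the liver derivatives, 7.49 to 7.61 in the lung derivatives and 7.26 to 7.42 in parental cells, and 3 of them (PDPN, SFTPA1 and SFTPA2) were called higher in the lung derivatives than in parental cells. The 8 leukocyte markers averaged 6.34 to 6.38 in the liver derivatives, 6.54 to 6.61 in the lung derivatives and 6.20 to 6.35 in parental cells. In the lung derivatives 4 of them were called higher than in parental cells (LYZ by 1.64, CD3D by 0.45, MS4A1 by 0.37 and PTPRC by 0.19) and FCER1G fell by 0.46, and in the liver derivatives LYZ was called, higher by 0.97. The 6 fibroblast markers averaged 6.79 to 6.85 in the liver derivatives, 6.93 to 7.21 in the lung derivatives and 7.02 to 7.22 in parental cells, with 4 called in the lung derivatives (DCN and C1R higher, LUM and TAGLN lower) and LUM called in the liver derivatives (-1.97). The 5 endothelial markers averaged 6.80 to 6.92, 6.87 to 6.91 and 6.77 to 6.88 in liver derivatives, lung derivatives and parental cells, with SELE called higher in the lung derivatives, and no hepatocyte marker was called by limma against parental cells. Of all genes, 7.83% were called in the liver comparison and 30.1% in the lung comparison. Adjusted for array set, the lung comparison called 0 of the 6 lung epithelial markers, 2 of the 8 leukocyte and 1 of the 6 fibroblast markers. It called 0 of the 5 endothelial and 2 of the 5 epithelial colon cancer markers, beside 5.75% of all genes. The part of these markers in the results below was not tested, and in bulk RNA fewer cells of a type and less RNA per cell cannot be told apart.

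In the liver derivatives the ribosomal and initiation factor genes stayed close to parental levels. Of the 59 genes, 1 was called at a limma adjusted p under 0.05, the pseudogene symbol RPS14P3, where 7.83% of all genes were called (4.33% higher and 3.5% lower). Neither a cytosolic, nor a mitochondrial, nor an EIF gene was called, while limma's unadjusted p was under 0.05 for 1, 2 and 0 of them. The median change against parental cells was -0.056 for the cytosolic genes, -0.002 for the mitochondrial genes and 0.024 for the EIF genes, beside 0.010 for all genes. The 95% interval of the change lay within 0.5 log2 of 0 for 57 of the 59 genes (96.6%), against 87.4% of all genes. The exceptions were both pseudogene symbols, RPS14P3 and RPL23AP64. These shares are descriptions, as no test was made of the list.

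In the lung derivatives 6 of the 59 genes were called against parental cells, 10.2%, where 30.1% of all genes were called (12.9% higher and 17.3% lower). RPS28 rose, and RPL27A, EIF3A, EIF3M, AGO1 and the pseudogene symbol RPL36AP40 fell. By class these were 2 of 16 cytosolic, 0 of 20 mitochondrial and 2 of 10 EIF genes, and limma's unadjusted p was under 0.05 for 4 of the mitochondrial genes. The median change was -0.040 for the cytosolic, -0.092 for the mitochondrial and -0.059 for the EIF genes, beside -0.006 for all genes, and the cytosolic median was 0.003 with each array centred on its median and 0.006 with the median of rows as the gene value. The interval lay within 0.5 log2 of 0 for 57 of the 59 genes (96.6%), against 74.9% of all genes. Without parental array 4, 13 of the 59 genes were called and 41.4% of all genes. Adjusted for array set, 1 of the 59 was called, MRPL37, and 5.75% of all genes.

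Lung and liver derivatives differed in 8 of the 59 genes, 13.6%, where 19.9% of all genes were called (8.02% higher in the lung and 11.9% lower). RPS28 and RPS14P3 were higher in the lung derivatives, and RPL27A, RPS26, MRPL49, EIF3A, AGO1 and RPL23AP64 were lower. The median difference was 0 for the cytosolic, -0.063 for the mitochondrial and -0.070 for the EIF genes, beside -0.024 for all genes. The 3 lung arrays lay wholly above or below the 3 liver arrays for 6 and 18 of the 59 genes, where the groups did not overlap for 46% of all genes (18.9% higher in the lung and 27.2% lower). The interval lay within 0.5 log2 of 0 for 52 of the 59 genes (88.1%), against 73.6% of all genes. Without parental array 4, which enters here only through the shared spread, 14 genes were called where 32.3% of all genes were, and adjusted for array set limma called 0 of the 59 (unadjusted p under 0.05 for 2 of them) and 4 of all genes (0.0849%).

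**Figure D2:**
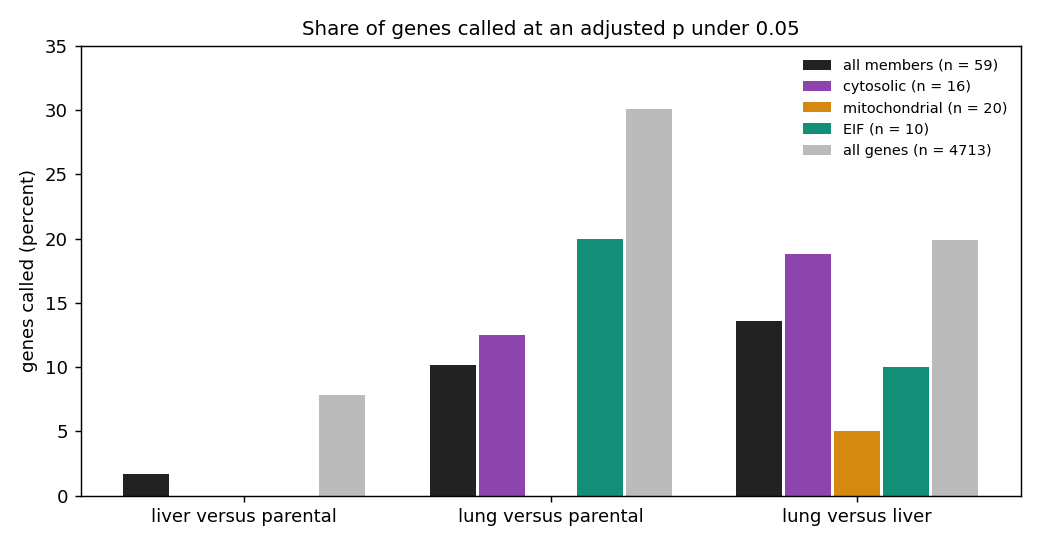
Share of genes called at an adjusted p under 0.05 (y axis, percent) in each comparison, for the 59 genes, for the cytosolic, mitochondrial and EIF classes, and for all 4713 genes. In each comparison the bar of the 59 genes (1.69%, 10.2% and 13.6%) is shorter than that of all genes (7.83%, 30.1% and 19.9%), and bars of height 0 mark classes with no called gene.

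**Figure D3:**
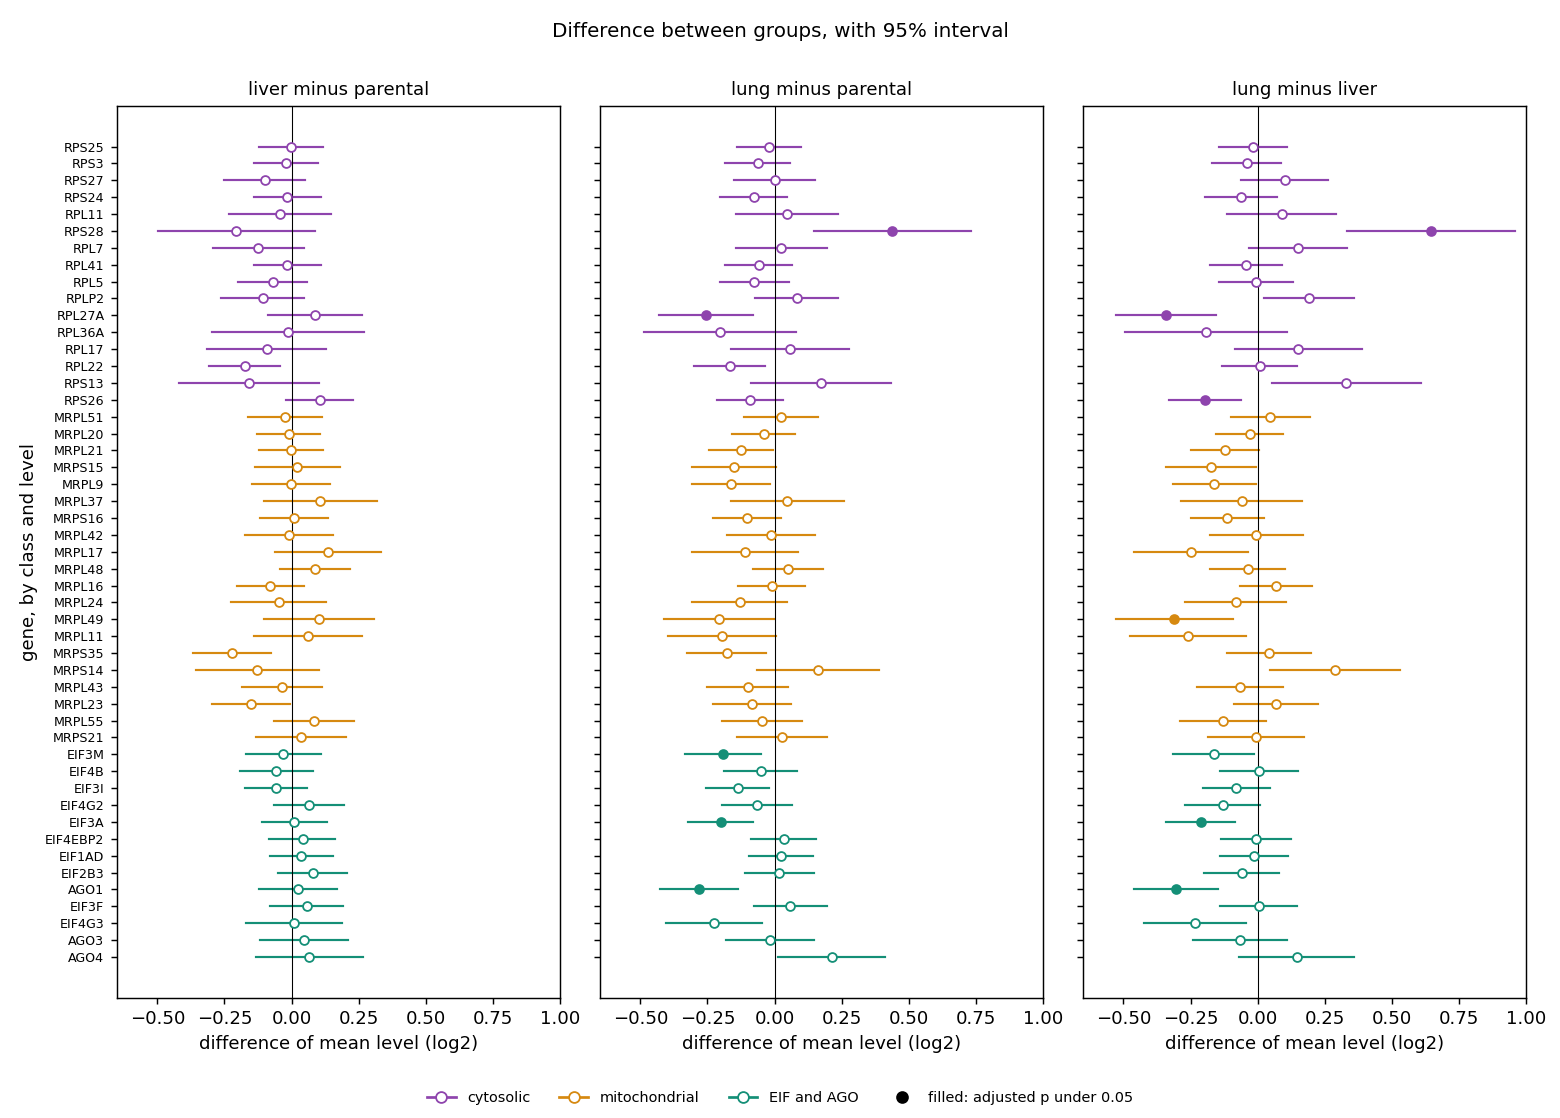
Difference of mean level between groups (x axis, log2) with its 95% interval for each cytosolic, mitochondrial, EIF and AGO gene, ordered by level within each class, for liver minus parental, lung minus parental and lung minus liver. Filled points mark an adjusted p under 0.05, none in the liver panel, and RPS28 (0.44 and 0.65) stands far to the right in the other 2 panels.

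Among the cytosolic large subunit proteins, RPL27A was lower in the lung derivatives. RPL27A, a core protein of the large subunit, had 11.98, 11.96 and 11.76 in the lung derivatives, 12.21, 12.25 and 12.26 in the liver derivatives, and 12.24, 12.21, 12.19 and 11.98 in parental cells. The lung arrays lay below the liver arrays and below parental arrays 1 to 3, and parental array 4 fell among them. RPL27A fell by 0.25 in the lung derivatives relative to parental cells (SE 0.079, limma adjusted p = 0.0332, n = 3 and 4), and the difference from the liver derivatives was -0.34 (SE 0.085, adjusted p = 0.0231). The change against parental cells was -0.31 without parental array 4 (adjusted p = 0.00502) and -0.082 adjusted for array set (adjusted p = 0.623). It was also no longer called after quantile normalization (adjusted p = 0.0665) or median centring (adjusted p = 0.0670), and without any of parental arrays 1 to 3, liver array 2 or lung array 3, with adjusted p up to 0.120. The difference from the liver derivatives was not called without any liver array, lung array 1 or lung array 3 (from -0.39 to -0.27, adjusted p up to 0.0813).

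The rows of RPL27A did not move together. Its 4 brightest rows, with means between 12.13 and 13.49, had lung changes between -0.079 and 0.15 against parental cells, none of them called. Its 3 dimmest rows, with means from 10.14 to 11.69, had lung changes of -0.58, -0.43 and -0.70, of which the first was called (adjusted p = 0.0453). In those 3 rows parental array 4 was also below the other parental arrays, at 10.78, 9.56 and 11.32.

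RPL22, a large subunit protein that also binds structured RNAs, had the most negative liver difference of its class. It had 11.19, 11.30 and 11.31 in the liver derivatives, 11.31, 11.24 and 11.27 in the lung derivatives, and 11.46, 11.41, 11.38 and 11.52 in parental cells. All 6 derivative arrays lay below all 4 parental arrays, parental array 4 included. The difference from parental cells was -0.175 in the liver derivatives (adjusted p = 0.128) and -0.168 in the lung derivatives (adjusted p = 0.0551), and neither passed the test. Without parental array 4 the lung difference was -0.14 (adjusted p = 0.0664), and adjusted for array set it was -0.24 (adjusted p = 0.105). Of all genes, 20.2% did not overlap between the groups in the liver comparison, 9.17% with the derivatives lower, and 32.3% in the lung comparison, 19.5% with the derivatives lower. Its rows were split in the lung, with changes from -0.57 to 0.48 over 3 rows, and of one sign in the liver, from -0.19 to -0.14.

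The other large subunit genes gave no called difference. RPLP2, an acidic protein of the stalk to which elongation factors bind, had 12.29, 12.43 and 12.40 in the lung derivatives, against 12.18, 12.15 and 12.21 in the liver derivatives. Every lung array was above every liver array, and the difference of 0.19 had an adjusted p of 0.0916, which was 0.0320 without parental array 4, while adjusted for array set the difference was -0.014. RPL5 and RPL11, which form a particle with 5S rRNA and bind MDM2 when ribosome assembly is disturbed, differed from parental cells by -0.070 and -0.042 in the liver derivatives and by -0.077 and 0.047 in the lung derivatives. RPL41, a very short basic protein, differed by -0.059 in the lung derivatives. RPL7, RPL17 and RPL36A are annotated on chromosomes 8, 18 and X, yet their 6 rows lay, by row number, among rows of genes on chromosome 1 or 11. Copies of these genes that cannot be told apart from them may therefore be what the rows measure.

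In the small subunit RPS28 gave the largest change of the 59 genes between the lung derivatives and either other group. RPS28, a small protein near the mRNA exit of the subunit, had 13.08, 13.02 and 13.09 in the lung derivatives, 12.44, 12.38 and 12.43 in the liver derivatives, and 12.40, 12.49, 12.53 and 13.08 in parental cells. The lung arrays were above the liver arrays and above parental arrays 1 to 3, and parental array 4 lay within the lung range. RPS28 rose by 0.44 in the lung derivatives relative to parental cells (SE 0.13, adjusted p = 0.0300), a fold of 1.36, and the difference from the liver derivatives was 0.65 (SE 0.14, adjusted p = 0.0163). The change against parental cells was 0.59 without parental array 4 (adjusted p = 6.4e-05) and -0.015 adjusted for array set (adjusted p = 0.922). The lung call was lost when any of parental arrays 1 to 3 or any lung array was left out (changes from 0.36 to 0.46, adjusted p up to 0.0849). The difference from the liver derivatives was not called without liver array 2, liver array 3 or lung array 1 (adjusted p up to 0.0691).

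The RPS28 rows also disagreed. Their brightest row had 13.51, 13.46 and 13.48 in the lung derivatives, against 13.60, 13.64, 13.56 and 13.58 in parental cells, a difference of -0.11 (adjusted p = 0.370 over all rows). The other 2 rows were higher in the lung derivatives than in parental cells by 0.77 and 0.65 (adjusted p = 0.0552 and 0.0705) and higher than in the liver derivatives by 1.10 and 0.96 (adjusted p = 0.0282 and 0.0318). RPS28 is annotated on chromosome 19, and its 3 rows lay among rows of chromosome 11 genes, so a copy of the gene and the gene itself cannot be told apart.

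**Figure D4:**
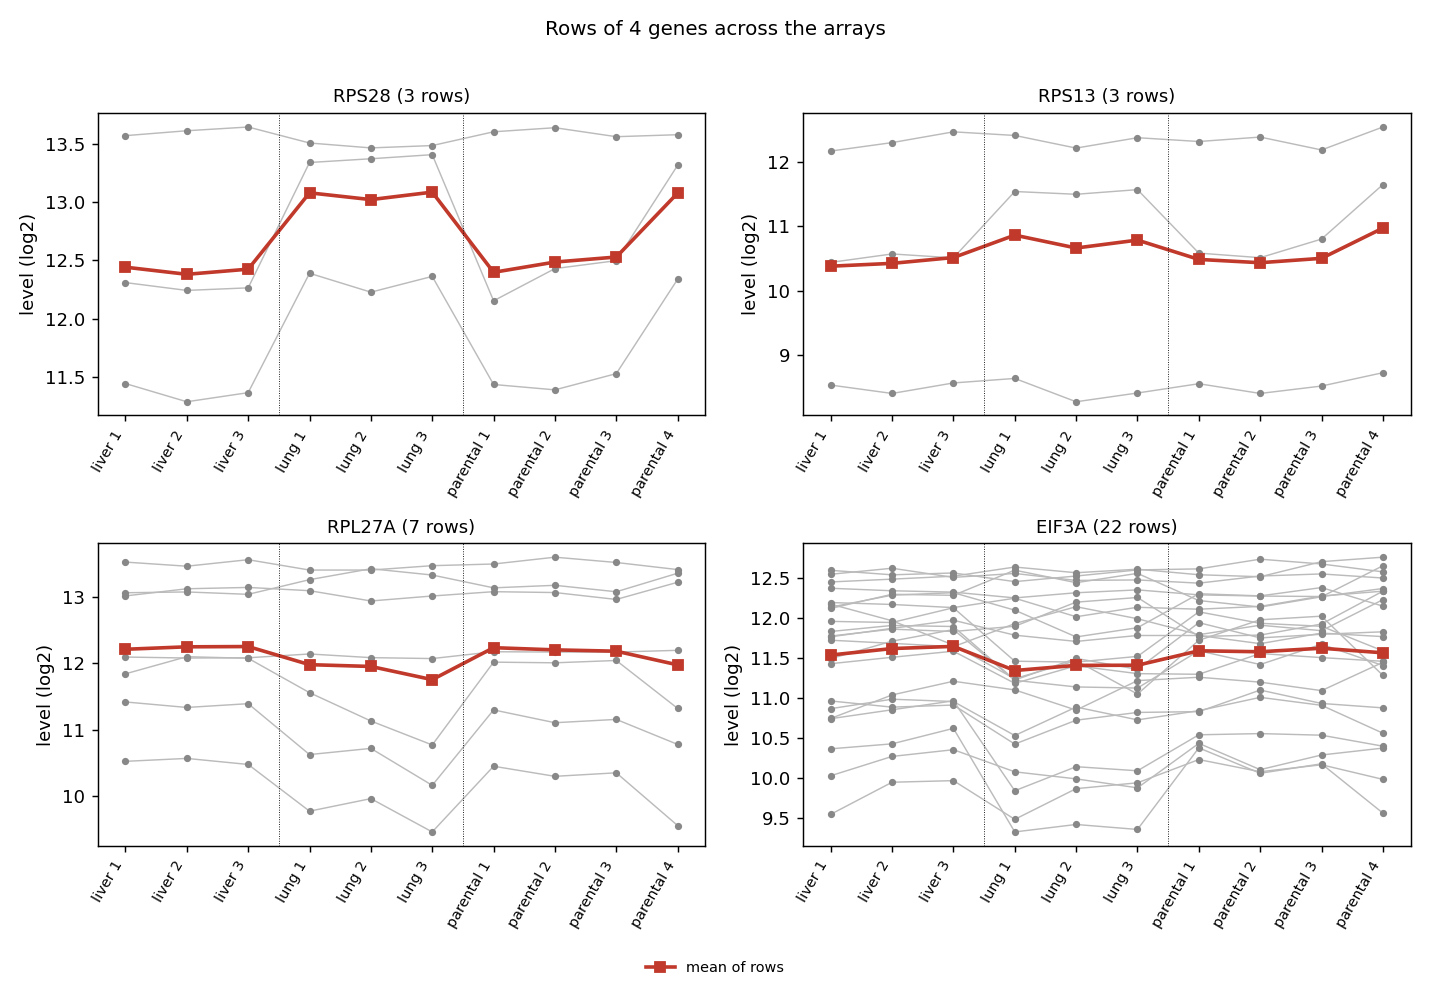
Level (y axis, log2) of each row of RPS28, RPS13, RPL27A and EIF3A on each array (x axis), with rows in grey and the gene mean in red, liver arrays at the left, lung arrays in the middle and parental arrays at the right. In RPS28, RPS13 and RPL27A some rows shift on the lung arrays and on parental array 4 together, and the brightest rows stay level.

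RPS13, a small subunit protein that contacts the large subunit, was called or not depending on parental array 4. It had 10.86, 10.66 and 10.79 in the lung derivatives, 10.38, 10.43 and 10.52 in the liver derivatives, and 10.49, 10.44, 10.50 and 10.97 in parental cells. The lung arrays lay above the liver arrays and above parental arrays 1 to 3, and parental array 4 was the highest of all. The difference was 0.17 from parental cells (adjusted p = 0.288) and 0.33 from the liver derivatives (adjusted p = 0.0824). Both were called without parental array 4, at 0.30 (adjusted p = 0.00621) and 0.33 (adjusted p = 0.00607), and adjusted for array set both were negative, -0.20 and -0.17 (adjusted p = 0.228 and 0.680). The gene mean rested on 1 of its 3 rows, which lay among rows of its own chromosome 11 and was higher in the lung than in the liver derivatives by 1.03 (adjusted p = 0.0361), while the others differed by 0.022 and -0.061. The row with -0.061 lay among rows of chromosome 1 genes, so it may measure a copy of the gene, and without it the lung against liver difference was called.

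RPS26, a protein at the mRNA exit that is mutated in Diamond-Blackfan anaemia, was lower in the lung than in the liver derivatives. It had 10.15, 10.08 and 10.18 in the lung derivatives and 10.34, 10.32 and 10.34 in the liver derivatives, with 10.31, 10.22, 10.19 and 10.19 in parental cells between them. Lung and liver arrays did not overlap, and the difference was -0.20 (SE 0.061, adjusted p = 0.0437). It came from the dimmer of its 2 rows (-0.39), while the brighter row differed by -0.003, and it did not pass the test with quantile normalization (adjusted p = 0.161) or median centring (adjusted p = 0.0764). Of the 10 fits that each left out 1 array, the call held only in those without parental array 1 or parental array 4 (adjusted p up to 0.117 in the others). RPS3, which lines the mRNA entry channel, and RPS25 stayed within 0.062 of parental cells in both derivatives. RPS24, a further Diamond-Blackfan protein, and RPS27, a zinc finger protein, differed by -0.078 and 0 in the lung derivatives.

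With all 10 arrays, no mitochondrial ribosomal protein gene was called by limma against parental cells in either derivative. In the lung comparison 15 of the 20 genes had negative differences and 5 positive ones, between -0.21 and 0.16, and over all genes 2408 were negative and 2305 positive. Adjusted for array set the median of the class was -0.020 in place of -0.092. Parental array 4 lay outside the other parental arrays on the lung side for 14 of the 20 genes, and for 56.3% of all genes.

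MRPL49 was the mitochondrial gene called between the derivatives. MRPL49, of the large subunit, had 10.29, 10.52 and 10.45 in the lung derivatives and 10.81, 10.74 and 10.64 in the liver derivatives, with 10.75, 10.72, 10.64 and 10.40 in parental cells. The lung arrays lay below the liver arrays, and parental array 4 lay with the lung arrays. The difference between lung and liver was -0.31 (SE 0.099, adjusted p = 0.0483), and it was -0.005 adjusted for array set (adjusted p = 0.995). MRPL49 was also not called with quantile normalization, median centring, the median of rows or the brightest row. All 5 of its rows were lower in the lung than in the liver derivatives, with differences from -0.49 to -0.04, and none was called by itself. Of the 10 fits that each left out 1 array, the call held only in those without parental array 4 or lung array 2 (adjusted p up to 0.151 in the others).

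MRPS35, of the mitochondrial small subunit, was lower in both derivatives than in parental cells without passing the test. It had 10.39, 10.45 and 10.46 in the liver derivatives, 10.56, 10.39 and 10.48 in the lung derivatives, and 10.69, 10.58, 10.60 and 10.76 in parental cells. All derivative arrays lay below all parental arrays. The difference was -0.22 in the liver derivatives (adjusted p = 0.0752), where each of its 9 rows was negative, and -0.18 in the lung derivatives (adjusted p = 0.0626), where 6 of the 9 rows were. The lung difference was -0.15 without parental array 4 (adjusted p = 0.0838) and -0.28 adjusted for array set (adjusted p = 0.0923). Where only genes above the dimmest 25% were tested, MRPS35 was called in both derivatives.

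MRPL37, of the large subunit, depended on parental array 4 in another way. It had 11.69, 11.70 and 11.63 in the liver derivatives, 11.59, 11.63 and 11.62 in the lung derivatives, and 11.66, 11.67, 11.69 and 11.27 in parental cells. The other 9 arrays lay between 11.59 and 11.70, and parental array 4 lay well below them. The lung difference from parental cells was 0.048 (adjusted p = 0.725), and adjusted for array set, where parental array 4 alone is the comparison, it was 0.35 (adjusted p = 0.0197).

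Of the other mitochondrial genes named by the rule, none passed the test against parental cells with all 10 arrays. MRPL17 and MRPL23, of the large subunit, differed from parental cells by 0.14 and -0.15 in the liver derivatives. MRPS14, of the small subunit, had 10.42, 10.31 and 10.27 in the lung derivatives and 9.97, 10.06 and 10.10 in the liver derivatives, a difference of 0.29 (adjusted p = 0.0832), with parental array 4 at 10.47 and the other parental arrays from 9.99 to 10.17. MRPS14 was called without parental array 4 in the lung derivatives against parental cells (0.26, adjusted p = 0.0141) and against liver derivatives (adjusted p = 0.0123), and adjusted for array set both differences were negative (-0.14 and -0.11). MRPS15, a small subunit protein with a bacterial homologue, had 11.83, 11.88 and 11.88 in the lung derivatives, against 12.14, 12.04, 12.04 and 11.84 in parental cells, a difference of -0.15 (adjusted p = 0.131). Again the lung arrays lay with parental array 4 and apart from parental arrays 1 to 3. The MRPS15 difference was called without parental array 4 (-0.21, adjusted p = 0.0107), and adjusted for array set it was 0.026. MRPL48, of the large subunit, differed by 0.087 in the liver derivatives and 0.050 in the lung derivatives. MRPL51, the brightest of the class at 12.37, differed by -0.023 in the liver derivatives and 0.024 in the lung derivatives, and MRPL55 and MRPS21, the dimmest of the large and small subunits, by no more than 0.083 in either.

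Among the initiation factors 2 subunits of eIF3 fell in the lung derivatives. EIF3A, the scaffold of the eIF3 complex on which the other subunits assemble, had 11.34, 11.41 and 11.41 in the lung derivatives, 11.54, 11.62 and 11.64 in the liver derivatives, and 11.59, 11.58, 11.62 and 11.56 in parental cells. All lung arrays lay below all other arrays, parental array 4 included. EIF3A fell by 0.20 relative to parental cells (SE 0.055, adjusted p = 0.0199), and the difference from the liver derivatives was -0.21 (SE 0.059, adjusted p = 0.0306). The change against parental cells was -0.21 without parental array 4 (adjusted p = 0.0119) and -0.18 adjusted for array set (adjusted p = 0.193), so its size moved little while the call was lost, as it was after quantile normalization (adjusted p = 0.0505) and without lung array 1 (adjusted p = 0.0713). The difference from the liver derivatives was not called without any liver array, lung array 1 or lung array 3 (adjusted p up to 0.110). It was also not called with quantile normalization, median centring or the brightest row. On the brightest row the change against parental cells was -0.123 (adjusted p = 0.209). Of the 22 rows of EIF3A, 18 were negative against parental cells, between -0.68 and 0.21 over all rows, and 3 were called, all lower.

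EIF3M, another subunit of eIF3, had 12.23, 12.32 and 12.39 in the lung derivatives, 12.46, 12.47 and 12.49 in the liver derivatives, and 12.58, 12.51, 12.53 and 12.39 in parental cells. The lung arrays lay below all others, though parental array 4 was only just above lung array 3. EIF3M fell by 0.19 relative to parental cells (SE 0.064, adjusted p = 0.0425). The change was -0.23 without parental array 4 (adjusted p = 0.00967), -0.080 adjusted for array set (adjusted p = 0.565) and 0.020 on the brightest row alone. Its call also went with quantile normalization (adjusted p = 0.0641) and median centring (adjusted p = 0.0815), and of the 10 fits that each left out 1 array it held only in those without parental array 4 or lung array 3 (adjusted p up to 0.151 in the others).

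The other eIF3 subunits were not called. EIF3I had 12.28, 12.25 and 12.25 in the liver derivatives, 12.14, 12.24 and 12.16 in the lung derivatives, and 12.33, 12.33, 12.30 and 12.32 in parental cells. Both derivatives lay below every parental array by small amounts, -0.058 in the liver derivatives (adjusted p = 0.650) and -0.14 in the lung derivatives (adjusted p = 0.0708). The lung difference kept that size without parental array 4 (adjusted p = 0.0577) and adjusted for array set (adjusted p = 0.271). EIF3F, which carries the tract shown above, differed by 0.056 and 0.059.

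The remaining EIF genes span the exchange of eIF2 nucleotides and the cap-binding steps. EIF2B3, a subunit of the eIF2 exchange factor, differed from parental cells by 0.079 in the liver derivatives and 0.018 in the lung derivatives. EIF4B, which stimulates the eIF4A helicase, differed by -0.056 and -0.052. EIF4G3, a scaffold that links the cap-binding protein to eIF3, had 9.54, 9.57 and 9.85 in the lung derivatives, against 9.94, 9.90, 9.79 and 9.89 in parental cells, a difference of -0.23 (adjusted p = 0.0553). Lung array 3 lay within the parental range, and lung arrays 1 and 2 below it. The difference was -0.22 without parental array 4 (adjusted p = 0.0628) and -0.24 adjusted for array set (adjusted p = 0.268). EIF4G2, an eIF4G-like protein that does not bind the cap-binding protein, EIF4EBP2, a repressor of that protein, and EIF1AD differed from parental cells by no more than 0.066 in either derivative. The largest rise of the class in the lung comparison was that of EIF3F, 0.059.

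AGO1, listed on the array as EIF2C1 and no initiation factor, was lower in the lung derivatives. It had 10.14, 10.18 and 10.29 in the lung derivatives, 10.45, 10.54 and 10.53 in the liver derivatives, and 10.49, 10.59, 10.48 and 10.38 in parental cells. The lung arrays lay below all others, and parental array 4 was the lowest of the rest. AGO1 fell by 0.28 relative to parental cells (SE 0.066, adjusted p = 0.0112), a call that held in all 10 fits that each left out 1 array, and the difference from the liver derivatives was -0.30 (adjusted p = 0.0193), not called without liver array 2, liver array 3 or lung array 1 (adjusted p up to 0.0799). The change against parental cells was -0.31 without parental array 4 (adjusted p = 0.00318) and -0.18 adjusted for array set (adjusted p = 0.246), and 16 of its 20 rows were negative. On the brightest row of AGO1 that change was -0.135 (adjusted p = 0.182), and with the median of rows it was not called. The difference from the liver derivatives was not called on the brightest row or with the median of rows. AGO3 and AGO4 differed from parental cells by -0.018 and 0.21 in the lung derivatives, without passing the test (adjusted p = 0.101 for AGO4).

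The pseudogene symbols held calls at low signals. RPS14P3 had 4.42, 4.41 and 4.92 in the liver derivatives, 5.18, 5.05 and 4.82 in the lung derivatives, and 5.18, 5.17, 5.08 and 5.19 in parental cells. Its liver arrays lay below all parental arrays, though liver array 3 was above lung array 3. It fell by 0.57 in the liver derivatives relative to parental cells (SE 0.12, adjusted p = 0.0142), and the call was lost without liver array 1 or liver array 2 (changes of -0.49 in both, adjusted p up to 0.0833). Between the derivatives it was 0.43 higher in the lung (SE 0.13, adjusted p = 0.0418), and of the 10 fits that each left out 1 array this call held only in those without parental array 4, liver array 3 or lung array 3 (adjusted p up to 0.151 in the others). RPL36AP40 fell by 0.25 in the lung derivatives relative to parental cells (adjusted p = 0.0443), and the change was -0.047 adjusted for array set. Of the 10 fits that each left out 1 array, its call held only in the one without parental array 4. RPL13P5 and RPL37AP8 differed by -0.26 and -0.007 in the lung derivatives without passing the test (adjusted p = 0.0511 and 0.940). RPL23AP64 had 7.73, 7.83 and 7.40 in the lung derivatives and 8.10, 8.11 and 8.52 in the liver derivatives, a difference of -0.59 (adjusted p = 0.0181) that was not called without liver array 2, liver array 3 or lung array 1 (adjusted p up to 0.0594). Their levels put RPS14P3 at percentile 2.12 and RPL36AP40 at percentile 1.44 of all genes, and no detection calls were used here, so signal and background cannot be told apart at those levels.

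Rows were also tested singly, with adjustment over all rows. Of the 441 rows, 0 were called in the liver comparison, where 2.2% of all rows were, with limma's unadjusted p under 0.05 for 21 of the 441, and limma on gene means called 1 gene. In the lung comparison 32 rows of 19 genes were called, 7 higher and 25 lower, and 13.1% of all rows were. Between lung and liver derivatives 48 rows of 29 genes were called, 17 higher in the lung and 31 lower, and 12.6% of all rows were. The rows called in the lung comparison had a median level of 10.33, and all rows of the 59 genes one of 11.22.

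Genes with and without a pyrimidine tract at the start are set side by side as a description. Of the 14 genes with a tract, 0 were called higher and 2 lower (RPL27A and EIF3M) in the lung derivatives against parental cells, with a median change of -0.055. Of the 30 genes with a start but no tract, 1 was called higher and 1 lower, with a median change of -0.044, and of all genes 12.9% were called higher and 17.3% lower. Between lung and liver derivatives 1 of the 14 was called, lower in the lung, with a median difference of -0.008, and of the 30, 1 was called higher and 3 lower, with a median of -0.062, beside 8.02% higher and 11.9% lower of all genes. In the liver derivatives the medians were -0.026 and 0.022, with no call on either side.

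Other genes of the translation machinery were read from lists that hold no member of the classes above. Of 34 ribosome biogenesis genes, 18 were called in the lung derivatives against parental cells, 2 higher and 16 lower, with a median change of -0.19, beside the 30.1% of all genes called. RPP38, a subunit of RNase P and RNase MRP, rose by 0.39 (adjusted p = 0.00136) and GTPBP4, a GTPase of large subunit assembly, by 0.38 (adjusted p = 0.00162), while UTP11, of the small subunit processome, fell by 0.50 (adjusted p = 0.00615). RPP38 and GTPBP4 were also the genes of this list called in the liver derivatives, both higher, by 0.36 and 0.30 (adjusted p = 0.00258 and 0.00807). Of all genes, 7.83% were called in the liver comparison. Between lung and liver derivatives 11 of the 34 were called, all lower in the lung, where 11.9% of all genes were, among them UTP20, of the same processome (-0.45, adjusted p = 0.0121), the nucleolar phosphoprotein gene NOLC1 (-0.52, adjusted p = 0.0156) and the helicase gene DDX10 (-0.26, adjusted p = 0.0156). Adjusted for array set, 2 of the 34 were called in the lung comparison (5.75% of all genes) and 0 between the derivatives (0.0849% of all genes). The 2 were RPP38 (0.505) and ZNF593 (0.431), and GTPBP4 (0.29) was not among them. Without that term ZNF593 was not called in the lung comparison (0.024, limma adjusted p = 0.899). Without parental array 4, 25 were called in the lung comparison (2 higher and 23 lower, beside 41.4% of all genes) and 19 between the derivatives, all lower in the lung (32.3% of all genes).

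Synthetases, elongation factors and regulators held calls in the lung comparison, where 30.1% of all genes were called. Of 5 cytosolic aminoacyl-tRNA synthetases 1 fell in the lung derivatives, EPRS1, which charges glutamate and proline tRNAs (-0.26, adjusted p = 0.0166), and of 6 mitochondrial ones 2 fell, TARS2 and YARS2 (-0.30 and -0.26, adjusted p = 0.0117 and 0.0367). YARS2 was also called lower in the lung than in the liver derivatives (-0.29, adjusted p = 0.0448). EEF1G, a subunit of the elongation factor that recharges eEF1A, rose by 0.22 in the lung derivatives (adjusted p = 0.0484), 1 of 2 elongation and termination factors measured. Of 15 genes of signalling to translation and mRNA binding, MTOR, the growth kinase, fell by 0.33 in the lung derivatives (adjusted p = 0.0189), as did the poly(A)-binding protein gene PABPC4 by 0.33 (adjusted p = 0.0126) and LARP4, which protects poly(A) tails, by 0.20 (adjusted p = 0.0352). LARP4B, its paralogue, was the gene of this list called in the liver derivatives, higher by 0.37 (adjusted p = 0.00807), beside 7.83% of all genes. Between lung and liver derivatives 5 of the 15 were called, beside 19.9% of all genes: DDIT4, a stress-induced inhibitor of mTOR signalling, was higher in the lung (1.04, adjusted p = 0.0373), and PABPC4 (-0.41), MTOR (-0.35), LARP4B (-0.34) and LARP4 (-0.23) were lower. Without parental array 4, 7 of the 15 were called in the lung comparison (41.4% of all genes) and 8 between the derivatives (32.3% of all genes). Adjusted for array set none of these lung calls passed, and the MTOR change was -0.090 (adjusted p = 0.561).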

How the data were processed

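Total RNA of SW620 cells and their derivatives was hybridised to 10 Affymetrix HG1.0ST arrays. The deposited values are log2 expression values. Per the submitters' processing notes, the authors used RMA through oligo, with no version stated. RMA places arrays on a common distribution, so a change in total RNA per cell cannot be seen. The table has 65535 rows, the limit of an older spreadsheet format, and may be incomplete: 4660 of its 4713 genes lie on chromosomes 1, 10, 11 and 12. Of 4727 listed symbols, 4102 were current in RefSeq, 601 were updated by synonym and 24 were kept, and rows with several symbols were not used for any gene. No genome build of the array design was used here.

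Each gene was the mean of its rows with a single symbol, with no filter on dim genes. limma (version 3.58.1, R 4.3.3) was fitted two-sided to all 4713 genes and 10 arrays with 1 coefficient per group, and p-values were adjusted by Benjamini-Hochberg over all genes of a contrast, or over all 56949 rows with a gene where single rows are given. A gene was called at an adjusted p under 0.05. A change is the difference between 2 group means, with limma's SE and 95% interval. The number of arrays limits the precision. The fit was tested on simulated data. RefSeq starts and names come from GRCh38.p14, and rows were placed among their 60 neighbours on each side by row number.

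The members, gene lists and tests were chosen with earlier results of these data known. Genes are named by a rule: all called members, the 2 brightest and 2 dimmest of a class, the largest rise and fall of a class in each comparison, and up to 3 called genes of each other list. Called cell type markers are named with their lists. RPL5, RPL36A, RPL41, RPS24, RPS27, MRPL37, EIF1AD, EIF4G2, EIF4EBP2 and ZNF593 were named after their values were seen. Alternatives were other summaries of rows, other scalings, filters on dim rows or genes, the array set as a term, a replicate block, array weights, fits on 2 groups, tests of single rows, and leaving out each array.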

Additional observations from a re-analysis of the deposited data

Results flagged for a closer look

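In 4 of the 59 genes parental array 4 lay far from the other parental arrays, by a gap that exceeded Dixon's 95% critical share of the group's range. Its levels were 12.51 for RPL5, 10.97 for RPS13, 10.5 for MRPL24 and 11.27 for MRPL37, while parental arrays 1 to 3 had 12.46 to 12.47 for RPL5, 10.44 to 10.50 for RPS13, 10.74 to 10.75 for MRPL24 and 11.66 to 11.69 for MRPL37. That share is exceeded by chance in about 1 in 20 independent groups of 4 values. Genes on the same arrays are not independent groups, so the 4 flags were not tested against that rate. No count over all genes is given here. For RPL5 parental arrays 1 to 3 lay so close together that a small gap was enough. All 4 of the flagged values were those of parental array 4.

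The lung and liver changes differed by the test of the difference itself in 8 genes. The lung minus liver difference was 0.65 for RPS28 and 0.43 for RPS14P3. It was -0.34 for RPL27A, -0.2 for RPS26, -0.31 for MRPL49, -0.21 for EIF3A, -0.3 for AGO1 and -0.59 for RPL23AP64. Adjusted for array set, 0 of these 8 were called.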

How the results depend on the processing

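Counts of called genes moved by over 1.5 times in 35 alternative counts and stayed within that in 31, in a design of 3 and 4 arrays where 1 parental array stands apart from the other parental arrays, and the cause of each move was not tested. Shares in brackets are those of all genes tested that were called in the same fit. The liver count was 1 (7.83%). It became 0 with the brightest row per gene (2.84%) and 0 with bright rows only (9.01%). With array weights it was 6 (18.3%), and with each row tested 0 genes (2.2% of all rows called). The lung count was 6 (30.1%). It became 3 with the brightest row (22.3%), 11 with bright rows only (40.3%) and 3 with quantile normalization (25.9%). It was 1 adjusted for array set (5.75%), 2 with only the 2 groups compared (19.9%) and 12 with array weights (40.2%). With each row tested it was 19 genes (13.1% of all rows called). The lung against liver count was 8 (19.9%). It became 4 with quantile normalization (17.5%), 5 with median centring (19.5%), 0 adjusted for array set (0.0849%) and 17 with array weights (36.7%). With each row tested it was 29 genes (12.6% of all rows called). Leaving out 1 array gave 0 to 1 liver calls, 2 to 13 lung calls and 0 to 14 calls between the derivatives. The liver count was 0 without liver array 1 (5.11%) or 2 (4.65%). The lung count was 2 without parental array 1 (18%) or 2 (17.7%), and 13 without parental array 4 (41.4%). It was 3 without parental array 3 (26.1%), liver array 2 (24.8%), lung array 1 (17.8%) or lung array 2 (27.1%). The count between the derivatives was 0 without liver array 2 (0.658%) or lung array 1 (3.99%). It was 1 without liver array 3 (3.69%) and 3 without liver array 1 (7.72%). It was 5 without parental array 2 (16.7%), parental array 3 (18%) or lung array 3 (12.8%), and 14 without parental array 4 (32.3%). The cytosolic lung median of -0.04 became 0.006 with the median of rows, -0.007 with quantile normalization and 0.003 with median centring, and between the derivatives the cytosolic median of 0 became 0.077 with the median of rows, 0.052 with quantile normalization and -0.058 adjusted for array set. The mitochondrial lung median of -0.092 became -0.033 with quantile normalization and -0.02 adjusted for array set. The EIF lung median of -0.059 became -0.006 with the median of rows and -0.016 with median centring, and the EIF median between the derivatives of -0.07 became -0.019 with quantile normalization and -0.031 with median centring. RPS28 reversed on its brightest row (-0.109 in the lung comparison, -0.123 between the derivatives) and in the lung adjusted for array set (-0.015). EIF3M reversed in the lung on its brightest row (0.02), and RPL27A between the derivatives with the median of rows (0.007). Leaving out the 10 rows among rows of another chromosome, a choice made after seeing the data, left 5 of the 6 lung calls, without RPS28, whose rows were all left out, and 8 calls between the derivatives, 7 of them shared, with RPS13 gained and RPS28 gone. Of all genes, 30.1% were then called in the lung comparison and 20.2% between the derivatives. A filter on dim genes took out RPS14P3, and MRPS35 was then the 1 gene called in the liver, with RPL22, MRPS35, EIF4G3 and RPL13P5 gained in the lung. Of all genes left by that filter, 10.2% were called in the liver comparison and 34.2% in the lung comparison. Other medians moved by less than the spread between arrays.

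Arrays with the same replicate number did not deviate together: correlations of their deviations from the group means ran from -0.203 to 0.132, and those of other pairs from -0.204 to 0.25, so the numbers do not pair the arrays, and arrays did not all correlate best with their own number. The replicate number was also fitted as a block, which absorbs parental array 4, the only array of that number. That fit called 0 liver genes (7.38% of all genes), 12 lung genes (37.9%) and 10 genes between the derivatives (27.4%).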

Other observations

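Rows of the same gene could be called in opposite directions between the lung derivatives and parental cells, which a gene mean hides. Of 8 genes with several called rows, 4 had rows called both ways, all named here after their values were seen. No such count was made over all genes, so whether it is particular to these genes was not tested. For MRPL11, which sits at the base of the mitochondrial ribosome's factor-binding stalk, the changes of such rows were -0.95 and 0.52 (limma adjusted p over all rows 0.0142 and 0.0260), and the gene mean differed by -0.20 without passing the test. For MRPS21 they were -0.97 and 0.54 (adjusted p = 0.0353 and 0.0292), with a gene mean difference of 0.028. For EIF3F they were -0.64 and 0.55 (adjusted p = 0.0449 and 0.0114), with a gene mean difference of 0.059. EIF4G3 had 1 row called higher (0.77, adjusted p = 0.0341) and 4 called lower, from -0.68 to -0.64, among its 37 rows. In the MRPS21 row that fell, the lung derivatives had 9.01, 8.98 and 8.87, against 10.25, 10.22, 10.08 and 9.14 in parental cells, so parental array 4 lay near the lung arrays there as well. What part of each transcript these rows measure was not tested.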
